A study of Mus musculus with 12 samples.

Results

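A group of 34 genes of the PI3K, AKT and mTOR pathway was described here, in cultured mouse medulloblastoma cells given the histone deacetylase inhibitor LBH589 (panobinostat) or its solvent. A gene's value was the log2 expression value of the probe set that names that gene alone, and of the probe set with the highest mean over the arrays where a gene had several. Of the 34, 32 had such a probe set, out of 22180 genes on the array, and all 32 were bright enough to be tested, among 18652 genes in all. Rps6kb1 (S6 kinase 1) had no value under this rule, and Gsk3a shared its probe set with another gene. By role, 18 of the 34 activate the pathway, 11 inhibit it, and 5 were put in neither class because PI3K regulatory subunits both hold back and recruit the catalytic subunit, and because GSK3 kinases are targets that AKT switches off.

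The cells, named MP, model Group 3 medulloblastoma driven by MYC, a malignant embryonal tumour in the cerebellum, and were dissociated from the cerebella of tumour-bearing NSG mice, which lack a working adaptive immune system. From each of 3 tumours, MP525, MP567 and MP570, cells were cultured with 25 nM LBH589 for 6 or 12 h, or with 0.00025% DMSO for 6 or 12 h, so each of the 4 groups held 3 arrays, 1 from each tumour. The comparison was made to learn how inhibition of histone deacetylases harms these cells. The sources used here do not say how each tumour was induced or how many mice gave cells.

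In this pathway, insulin and IGF receptors act through adaptor proteins such as IRS1 on PI3K, which makes the membrane lipid PIP3. PIP3 recruits the kinases PDPK1 and AKT, and AKT releases RHEB, the activator of mTOR complex 1 (mTORC1), from inhibition by the TSC1-TSC2 complex. Active mTORC1 drives protein synthesis, in large part by freeing the cap-binding protein eIF4E from its inhibitors, the 4E-BP proteins, and the pathway is known as a source of growth and survival signals in medulloblastoma.

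Array medians lay between 7.10 and 7.21 and any pair of arrays correlated at 0.965 to 0.991. Precision is limited by having 3 arrays in a group. Of 5 markers of neural progenitors and proliferation, 4 (Nes, Mki67, Top2a and Pax6) lay above the array median on all 12 arrays, and Sox2 on 8. Markers of other cell types were above the 25th percentile on all 12 arrays in 5 of 6 genes for microglia and leukocytes, 5 of 5 for endothelium, 5 of 5 for astrocytes, 4 of 4 for oligodendrocytes, 4 of 5 for fibroblasts and 4 of 5 for neurons. Of the rest, the neuronal gene Gabra6 was below the 25th percentile on all 12 arrays, and Ptprc (leukocytes) and Lum (fibroblasts) were above it on 6. The mean of each of 7 marker lists had overlapping ranges in LBH589 and DMSO cultures. That of the endothelial list ran from 7.75 to 8.29 in LBH589 and from 7.32 to 8.07 in DMSO, that of the neuronal list from 9.14 to 9.73 and from 9.003 to 9.74, and that of the progenitor list from 9.79 to 10.38 and from 9.80 to 10.60. Of 34 markers tested, Kdr (log2 change 0.81 at 6 h and 0.72 at 12 h) and Syt1 (0.54 and 0.78) were called higher at both times, and Rbfox3 (-0.72) and Top2a (-0.63) lower at 12 h. Their part in the results below was not tested. The values come from RNA of whole cultures, in which fewer cells that express a gene and less of its RNA per cell cannot be told apart.

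Promoter windows are shown for Mlst8, Eif4e, Tsc2 and Eif4ebp2, the 4 members whose change under LBH589 was called at both times without any single array, as described further down. Each window holds the 250 bases before a transcription start in RefSeq's GRCm38.p6 assembly, read in the gene's direction. Capitals mark the E-box CACGTG, which MYC and other bHLH factors bind, and the GC box GGGCGG (reverse CCGCCC), which SP family factors bind. The FOXO site GTAAACA (reverse TGTTTAC), searched because AKT restrains FOXO factors, was in none of these windows.
Mlst8, chr17:24479079-24479328, minus strand: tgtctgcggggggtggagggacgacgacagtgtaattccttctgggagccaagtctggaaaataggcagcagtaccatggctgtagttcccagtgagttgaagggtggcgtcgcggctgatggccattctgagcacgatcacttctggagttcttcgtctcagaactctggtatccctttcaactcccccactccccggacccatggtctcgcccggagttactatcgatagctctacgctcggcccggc
Eif4e, second listed start, chr3:138527018-138527267, plus strand: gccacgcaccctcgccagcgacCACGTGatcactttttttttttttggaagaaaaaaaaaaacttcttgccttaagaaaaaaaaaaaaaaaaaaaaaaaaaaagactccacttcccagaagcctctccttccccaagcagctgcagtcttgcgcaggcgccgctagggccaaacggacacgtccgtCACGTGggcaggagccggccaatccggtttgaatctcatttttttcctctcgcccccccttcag
Tsc2, chr17:24632628-24632877, minus strand: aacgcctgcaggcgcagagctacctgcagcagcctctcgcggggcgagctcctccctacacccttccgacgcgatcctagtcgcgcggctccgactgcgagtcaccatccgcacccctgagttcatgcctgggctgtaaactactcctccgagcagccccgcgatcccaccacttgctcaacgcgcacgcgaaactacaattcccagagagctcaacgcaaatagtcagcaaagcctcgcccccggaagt
Eif4ebp2, chr10:61452670-61452919, minus strand: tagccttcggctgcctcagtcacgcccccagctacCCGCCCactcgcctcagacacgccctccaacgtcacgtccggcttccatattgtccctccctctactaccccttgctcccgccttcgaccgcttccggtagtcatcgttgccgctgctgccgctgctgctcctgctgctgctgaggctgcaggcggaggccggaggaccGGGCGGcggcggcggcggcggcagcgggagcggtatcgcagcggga
The Eif4e window held 2 E-boxes, which begin 228 and 64 bases before the start, while the window of its first listed start held none of the motifs. That of Eif4ebp2 held 2 GC boxes, and those of Mlst8 and Tsc2 held none of the motifs. Over 42 windows listed for 30 of the 34 members, searched on both strands, 3 (7.14%) held an E-box, 2 (4.76%) a FOXO site and 23 (54.8%) a GC box. Over all 32851 windows of that length the shares were 6.02%, 3.17% and 32.7%. A match describes these letters and is no evidence of binding.

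After 6 h, LBH589 changed transcripts on both sides of the pathway. A gene was called where its difference, LBH589 minus DMSO, had a limma adjusted p under 0.05 over all 18652 genes. By this rule 11 of the 32 members (34.4%) were called at 6 h, 5 higher and 6 lower, against 15.8% of all genes tested. At 12 h 11 members were called again, 6 higher and 5 lower, against 18.2% of all genes. Averaged over both times there were 14 (43.8%), 7 higher and 7 lower, against 30.1%. Shares were higher in a fit of only the 13822 genes above the 50th percentile: 22.8% at 6 h, 25.7% at 12 h and 39.7% over both times. Among those genes lay 29 of the 32 members. The adjustment was made anew over these fewer genes, so the higher shares do not measure brightness alone. Since each tumour gave 1 array to every group, the fit was also made with the tumour as a block, which takes the tumours' own levels out of the spread. With this block 19 members were called at 6 h (11 higher, 8 lower) against 34% of all genes, 19 at 12 h (10 higher, 9 lower) against 37.1%, and 21 over both times (12 higher, 9 lower) against 45.9%. Every member called without the block was also called with it. Leaving out arrays, which was done without the block, lowered these counts. Without MP570 as a whole 1 member (Mlst8) was called at 6 h, 3 (Mlst8, Eif4e and Tsc2) at 12 h and 9 over both times, without MP525 4, 5 and 10, and without MP567 7, 7 and 15. Calls over all 18652 genes, in the same order, numbered 879, 1265 and 3308 without MP570 and 1018, 1682 and 3678 without MP525. They numbered 2114, 2464 and 4804 without MP567, against 2948, 3395 and 5607 with every array. At 6 h the single arrays that lowered the count of 11 by over 1.5 times were those of MP525 and MP570 in LBH589 (7 each) and of MP567 (7) and MP570 (5) in DMSO. At 12 h they were those of MP525 (6) and MP570 (7) in LBH589 and of MP567 (6) and MP570 (7) in DMSO. Over all genes the same fits called, in that order, 1929, 1811, 2100 and 2175 at 6 h. At 12 h they called 2856, 2555, 2577 and 2435.

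Activators and inhibitors did not separate by direction. Of 17 activators tested, 3 rose and 4 fell at 6 h and again at 12 h, and of 11 inhibitors, 2 rose and 2 fell at 6 h, and 3 rose and 1 fell at 12 h. The median log2 change of the activators was 0.012 at 6 h and -0.105 at 12 h, and that of the inhibitors 0.059 and -0.020, against -0.020 and 0.006 for all genes tested. None of the 4 genes in neither class was called without the block. With the block, 5 activators were called higher and 5 lower at 6 h, and 4 higher and 6 lower at 12 h. Among inhibitors those counts were 5 and 3 at 6 h, and 4 and 3 at 12 h. Called at both times without the block were 8 members, each in 1 direction. The share of all genes called at both times, or with groups that did not overlap, is not given here. Tsc2, Eif4ebp2, Pdpk1 and Mtor were higher, and Mlst8, Eif4e, Akt1 and Akt2 were lower. The plot of the change of every member at 6 h and 12 h shows these values.

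**Figure D1:**
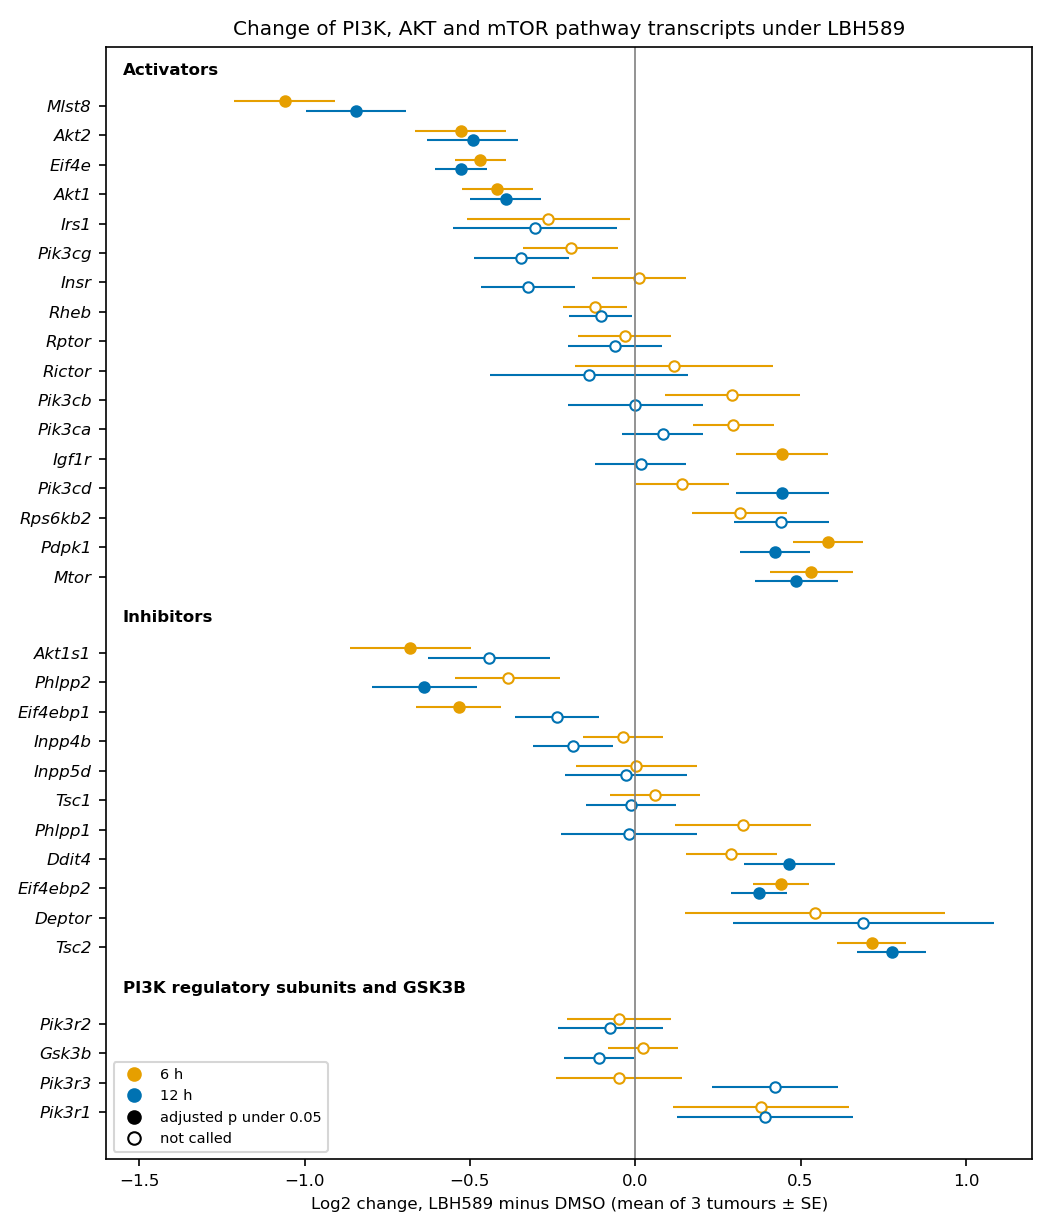
Log2 change of 32 pathway transcripts, LBH589 minus DMSO, at 6 h (orange) and 12 h (blue), as the mean of 3 tumours ± SE of the fit without a block, with filled points where the limma adjusted p was under 0.05. Filled points lie on both sides of 0 among activators and among inhibitors, from -1.06 (Mlst8 at 6 h) to 0.78 (Tsc2 at 12 h).

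Below, the 3 values of a group are log2 expression on the arrays of MP525, MP567 and MP570, in that order. The largest fall was that of Mlst8, which encodes a subunit that mTORC1 and mTORC2 share. Mlst8 had 8.99, 9.52 and 9.65 in LBH589 at 6 h, against 10.38, 10.45 and 10.51 in DMSO. At 12 h its values were 9.32, 9.45 and 9.46 in LBH589, against 10.21, 10.30 and 10.25 in DMSO. At both times every LBH589 culture lay below every DMSO culture, and at 6 h MP525 lay lowest of all 12. The log2 change of Mlst8 was -1.06 ± 0.15 at 6 h (SE, limma adjusted p = 0.00097) and -0.84 ± 0.15 at 12 h (limma adjusted p = 0.00296), or 0.479 and 0.557 of the DMSO level. Both calls held without each single array and without each tumour. Eif4e, which encodes the cap-binding protein that mTORC1 sets free, had 11.32, 11.46 and 11.33 in LBH589 at 6 h, against 11.83, 11.86 and 11.83 in DMSO. At 12 h Eif4e had 11.36, 11.21 and 11.27 in LBH589, against 11.84, 11.85 and 11.72 in DMSO. The groups did not overlap at either time. Its log2 changes were -0.47 ± 0.08 and -0.53 ± 0.08 (limma adjusted p = 0.00231 and 0.000978), and both calls held without each single array. Without MP525 or MP570 as a whole the Eif4e call at 6 h was lost (highest adjusted p = 0.0661).

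Transcripts of the AKT kinases fell too. Akt1 had 10.88, 11.11 and 11.04 in LBH589 at 6 h, against 11.38, 11.41 and 11.49 in DMSO, and at 12 h 10.88, 11.18 and 10.91 in LBH589, against 11.28, 11.48 and 11.39 in DMSO. Akt2, the form best known for insulin-driven glucose uptake, had 10.17, 10.48 and 10.43 in LBH589 at 6 h, against 10.75, 11.05 and 10.88 in DMSO. At 12 h Akt2 had 10.31, 10.50 and 10.49 in LBH589, against 10.69, 11.10 and 10.97 in DMSO. For both genes each tumour was lower with LBH589 at both times, and the groups did not overlap. The log2 changes of Akt1 were -0.42 ± 0.11 and -0.39 ± 0.11 (limma adjusted p = 0.0217 and 0.0251). Those of Akt2 were -0.53 ± 0.14 and -0.49 ± 0.14 (limma adjusted p = 0.0225 and 0.0271). At each time both calls were lost without any one of 4 arrays of that time, those of MP525 and MP570 in LBH589 or those of MP567 and MP570 in DMSO (highest adjusted p = 0.101, Akt2 at 12 h). The Akt1 call at 12 h was lost with quantile normalization as well (0.0615). Without MP525 or MP570 as a whole, Akt1 was called at neither time (highest adjusted p = 0.233). The Akt2 call was lost without any one tumour at 6 h (highest 0.175), and without MP567 or MP570 at 12 h (highest 0.202).

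Pdpk1 and Mtor, both kinases that activate the pathway, moved the other way. Pdpk1, which phosphorylates AKT, had 11.64, 11.41 and 11.54 in LBH589 at 6 h, against 11.06, 10.89 and 10.90 in DMSO. At 12 h Pdpk1 had 11.58, 11.26 and 11.34 in LBH589, against 10.99, 10.92 and 11.01 in DMSO. No DMSO culture reached the lowest LBH589 culture at either time. The log2 changes were 0.58 ± 0.11 and 0.42 ± 0.11 (limma adjusted p = 0.00358 and 0.0167). The 12 h call of Pdpk1 did not hold without either the LBH589 array of MP525 or the DMSO array of MP567 (highest adjusted p = 0.0563). Left-out tumours ended the Pdpk1 call too, MP570 at 6 h (adjusted p = 0.0993) and MP525 or MP570 at 12 h (highest 0.134). Mtor, the kinase of both mTOR complexes, had 10.59, 10.54 and 10.54 in LBH589 at 6 h, against 10.23, 10.04 and 9.80 in DMSO. At 12 h Mtor had 10.59, 10.72 and 10.51 in LBH589, against 10.21, 10.16 and 9.98 in DMSO. Again the groups were apart at both times, and at 6 h the spread lay mostly within DMSO, where MP570 was lowest. Its log2 changes were 0.53 ± 0.12 and 0.49 ± 0.12 (limma adjusted p = 0.0138 and 0.0185). Leaving out the DMSO array of MP570 ended the 6 h call of Mtor (adjusted p = 0.0519), and leaving out that tumour's DMSO array of 12 h or the LBH589 array of MP567 ended the 12 h call (highest adjusted p = 0.0763). Both Mtor calls were lost without any one of the 3 tumours (highest adjusted p = 0.144 at 6 h and 0.119 at 12 h).

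Among the inhibitors, Tsc2 and Eif4ebp2 rose at both times. Tsc2 encodes tuberin, the part of the TSC complex that switches RHEB off. Tsc2 had 11.46, 11.35 and 11.60 in LBH589 at 6 h, against 10.79, 10.70 and 10.78 in DMSO. At 12 h Tsc2 had 11.85, 11.52 and 11.77 in LBH589, against 10.87, 10.98 and 10.95 in DMSO. Every LBH589 culture lay above every DMSO culture. The log2 changes were 0.71 ± 0.11 and 0.78 ± 0.11 (limma adjusted p = 0.00111 and 0.000556), or 1.64-fold and 1.71-fold, and both calls held without each single array. The 6 h call of Tsc2 was lost without MP570 (adjusted p = 0.0524). Its partner in the complex, Tsc1, changed by 0.06 ± 0.14 and -0.01 ± 0.14 and was not called. Eif4ebp2, one of the 4E-BP proteins that block eIF4E, had 12.16, 12.44 and 12.32 in LBH589 at 6 h, against 11.75, 11.96 and 11.89 in DMSO. Its values at 12 h were 12.20, 12.34 and 12.26 in LBH589, against 11.92, 11.88 and 11.88 in DMSO, so the groups were again apart. The log2 changes of Eif4ebp2 were 0.44 ± 0.09 and 0.37 ± 0.09 (limma adjusted p = 0.00496 and 0.0103). Both calls held without each single array, and they were lost without MP570 at both times and without MP567 at 12 h (highest adjusted p = 0.141).

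**Figure D2:**
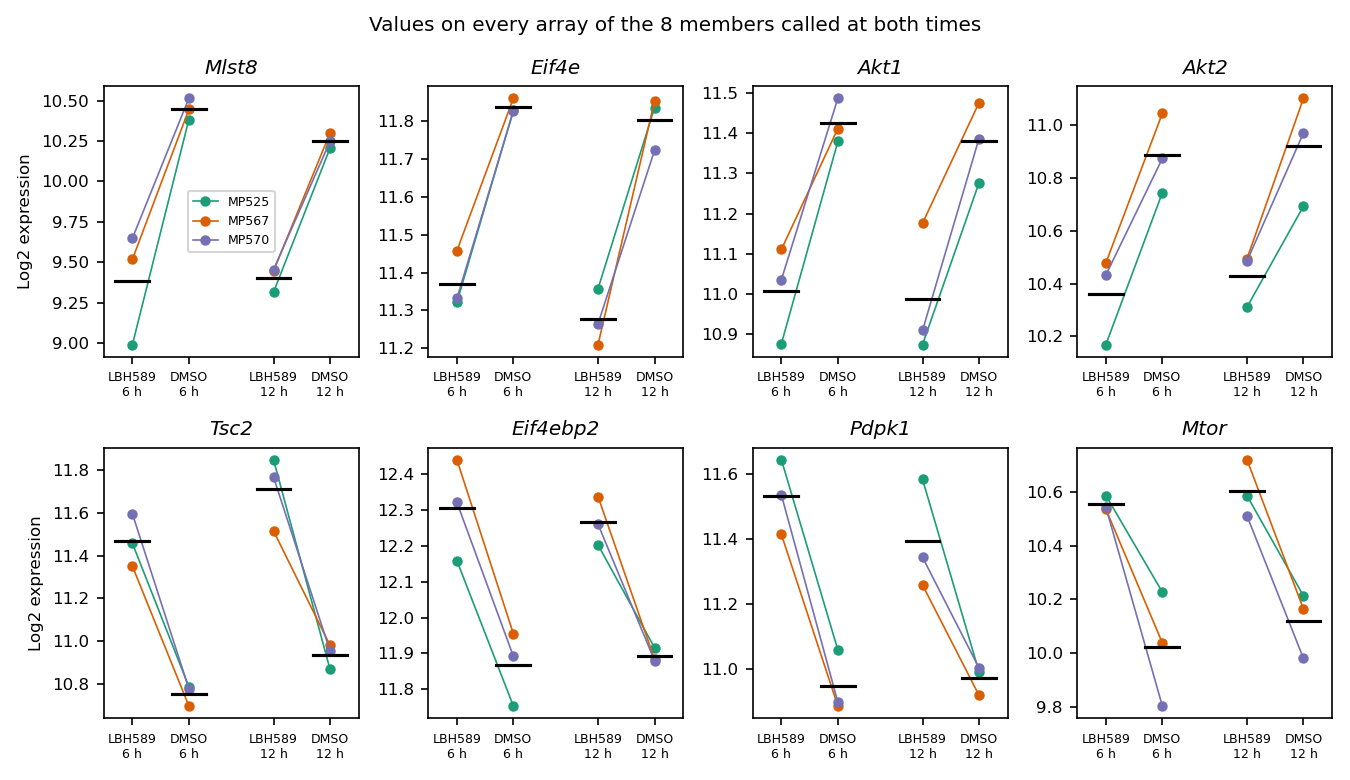
Log2 expression on every array of the 8 members called at both times, with lines joining the cultures of 1 tumour, bars for the mean of 3, and a separate vertical axis for each gene. In Mlst8, Eif4e, Akt1 and Akt2 all LBH589 points lie below all DMSO points of the same time, and in Tsc2, Eif4ebp2, Pdpk1 and Mtor above them.

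Of the other inhibitors, 3 fell at 1 time or over both times, and 1 rose. Akt1s1 (PRAS40), a substrate of AKT that holds mTORC1 back, had 8.32, 8.88 and 8.67 in LBH589 at 6 h, against 9.01, 9.45 and 9.44 in DMSO. At 12 h Akt1s1 had 8.54, 8.93 and 8.67 in LBH589, against 8.92, 9.30 and 9.24 in DMSO. The 6 h groups were apart, and at 12 h the MP567 culture with LBH589 lay just above the MP525 culture with DMSO. The log2 change was -0.68 ± 0.18 at 6 h (limma adjusted p = 0.0271) and -0.44 ± 0.18 at 12 h (0.123, and 0.00132 with the tumour block). A second probe set, shared by Akt1s1 and Mir707, changed by -0.06 and -0.05 (blocked adjusted p of 0.718 and 0.746 over all probe sets). Eif4ebp1 encodes 4E-BP1, which binds eIF4E until mTORC1 phosphorylates it. Eif4ebp1 had 11.62, 11.41 and 11.77 in LBH589 at 6 h, against 12.14, 11.97 and 12.29 in DMSO, and at 12 h 11.61, 11.29 and 11.57 in LBH589, against 11.71, 11.59 and 11.88 in DMSO. The groups did not overlap at 6 h and did at 12 h. Its log2 change was -0.53 ± 0.13 at 6 h (limma adjusted p = 0.0153) and -0.24 ± 0.13 at 12 h (0.243, and 0.00692 with the block). Thus Eif4ebp1 fell while Eif4ebp2 rose at 6 h. The 6 h call of Akt1s1 did not hold when leaving out the LBH589 array of MP525 or MP570 or the DMSO array of MP567 or MP570 (highest adjusted p = 0.108), and that of Eif4ebp1 without the LBH589 array of MP567 or the DMSO array of MP570 (highest 0.0594).

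Phlpp2 encodes a phosphatase that takes an activating phosphate off AKT. Phlpp2 had 9.31, 9.03 and 9.18 in LBH589 at 6 h, against 9.79, 9.62 and 9.27 in DMSO, and at 12 h 9.06, 8.91 and 8.69 in LBH589, against 9.68, 9.52 and 9.37 in DMSO. Its groups overlapped at 6 h alone. The log2 changes were -0.39 ± 0.16 at 6 h (limma adjusted p = 0.132, and 0.00708 with the block) and -0.64 ± 0.16 at 12 h (0.0161). That call was lost without the LBH589 array of MP570 or the DMSO array of MP525 (highest adjusted p = 0.0649). Its relative Phlpp1 changed by 0.33 ± 0.21 and -0.02 ± 0.21, and was called with the block at 6 h (adjusted p = 0.0102), higher. Ddit4 (REDD1) is induced by stress and keeps the TSC complex active. Ddit4 had 11.59, 11.18 and 11.48 in LBH589 at 6 h, against 11.14, 10.90 and 11.35 in DMSO, and at 12 h 11.66, 11.65 and 11.84 in LBH589, against 11.25, 11.12 and 11.38 in DMSO. At 6 h the groups overlapped, and at 12 h every LBH589 culture was higher. The log2 changes were 0.29 ± 0.14 (limma adjusted p = 0.193, and 0.011 with the block) and 0.47 ± 0.14 (0.0351). The 12 h call of Ddit4 was lost without any one of 5 of the 6 arrays of that time, all but the DMSO array of MP570 (highest adjusted p = 0.116).

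Deptor, which encodes a subunit that inhibits both mTOR complexes, spread widely between tumours. Deptor had 9.47, 8.56 and 9.55 in LBH589 at 6 h, against 8.80, 8.25 and 8.90 in DMSO. At 12 h Deptor had 9.89, 8.65 and 9.88 in LBH589, against 8.81, 8.19 and 9.36 in DMSO. Each tumour was higher with LBH589 at both times, but MP567 with LBH589 lay below MP525 and MP570 with DMSO, so the groups overlapped. The log2 changes of 0.54 ± 0.39 and 0.69 ± 0.39 were not called (limma adjusted p = 0.428 and 0.272). With the tumour block they were 0.54 ± 0.13 and 0.69 ± 0.13 (adjusted p = 0.0056 and 0.000956). A dimmer probe set of Deptor changed by 0.62 and 0.53, with blocked adjusted p of 0.0292 and 0.0504 over all probe sets. The lipid phosphatases Inpp4b and Inpp5d, which break down products of PI3K, were not called in either fit. Both were dim, on average 0.385 and 0.686 (log2) above the 25th percentile of the arrays. Their log2 changes ran from -0.19 to 0.00.

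Among receptors, adaptors and catalytic subunits, single members were called at 1 time. Igf1r, the IGF receptor, had 9.95, 10.19 and 10.07 in LBH589 at 6 h, against 9.66, 9.77 and 9.45 in DMSO. At 12 h its values were 9.87, 10.28 and 9.90 in LBH589, against 9.94, 10.05 and 10.01 in DMSO. The groups were apart at 6 h and overlapped at 12 h, where the DMSO cultures lay above those of 6 h. Igf1r changed by 0.44 ± 0.14 at 6 h (limma adjusted p = 0.049) and 0.02 ± 0.14 at 12 h (0.958). This 6 h call was lost without any one of 10 of the 12 arrays, all but the LBH589 12 h arrays of MP525 and MP567 (highest adjusted p = 0.165), and with quantile normalization, median centring or no filter (highest 0.0722). Pik3cd, the catalytic subunit best known in leukocytes, had 7.07, 6.92 and 7.23 in LBH589 at 6 h, against 6.89, 6.76 and 7.14 in DMSO. At 12 h Pik3cd had 7.21, 7.30 and 7.48 in LBH589, against 7.01, 6.62 and 7.02 in DMSO. The groups overlapped at 6 h and were apart at 12 h. Its log2 changes were 0.14 ± 0.14 and 0.44 ± 0.14 (limma adjusted p = 0.589 and 0.0485). The Pik3cd call at 12 h was lost without any one of 10 arrays, all but the DMSO 6 h arrays of MP567 and MP570 (highest adjusted p = 0.17), and under 4 other settings (highest 0.0654). None of the 6 markers of microglia and leukocytes was called at either time. Whether leukocytes have a part in the Pik3cd change was not tested.

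Rps6kb2 encodes S6 kinase 2, which phosphorylates ribosomal protein S6. Rps6kb2 had 10.15, 10.38 and 10.35 in LBH589 at 6 h, against 9.88, 10.03 and 10.02 in DMSO, and at 12 h 10.12, 10.43 and 10.02 in LBH589, against 9.52, 9.82 and 9.91 in DMSO. The groups were apart at both times. Its log2 changes were 0.32 ± 0.14 (limma adjusted p = 0.175, and 0.0238 with the block) and 0.44 ± 0.14 (0.0529, and 0.0028 with the block). Averaged over both times Rps6kb2 rose by 0.38 ± 0.10 (limma adjusted p = 0.014). Leaving out each of the 3 tumours in turn ended this call (highest adjusted p = 0.0786). The insulin receptor gene Insr changed by 0.01 ± 0.14 at 6 h and -0.32 ± 0.14 at 12 h, the second called with the block (adjusted p = 0.0134). Irs1, the adaptor of these receptors, changed by -0.26 ± 0.25 and -0.30 ± 0.25, both called with the block (0.0497 and 0.0235). A dimmer probe set of Irs1 changed by -0.29 and 0.04, with blocked adjusted p of 0.179 and 0.893 over all probe sets. Pik3ca, the catalytic subunit most often mutated in cancers, changed by 0.30 ± 0.12 and 0.08 ± 0.12, the first called with the block (0.0382). Pik3cb, Pik3cg, Rptor, Rictor and Rheb were called in neither fit at either time, with log2 changes between -0.34 and 0.29. Of these Pik3cg was dim, on average 0.503 (log2) above the 25th percentile of the arrays. Rptor and Rictor are the defining subunits of mTORC1 and mTORC2, so of the core genes of the mTOR complexes, Mtor rose, Mlst8 fell and these were not called.

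Among the regulatory subunits, which tie PI3K to receptors and adaptors, Pik3r1 (p85 alpha) had 10.61, 10.00 and 10.12 in LBH589 at 6 h, against 10.33, 9.46 and 9.80 in DMSO. At 12 h Pik3r1 had 10.66, 9.98 and 10.23 in LBH589, against 10.25, 9.51 and 9.93 in DMSO. Each tumour was higher with LBH589, and the groups overlapped because MP525 lay highest in every group. The log2 changes were 0.38 ± 0.27 and 0.39 ± 0.27 (limma adjusted p = 0.411 and 0.366). With the tumour block they were called (adjusted p = 0.00263 and 0.00186). Pik3r2 changed by -0.05 and -0.07 and Gsk3b by 0.02 and -0.11, and neither was called with or without the block. The probe set that Gsk3a shares with another gene changed by -0.12 and 0.00.

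Time in culture changed few of these genes. The LBH589 effect at 12 h minus that at 6 h passed the test in 0 of 32 members and in 0% of all genes without the block (limma), and in 0 members and 0.0107% of all genes with it. At an unadjusted limma p under 0.05 this difference held for 1 of 32 members, Igf1r, without the block, against 490 of 18652 genes. With the block it held for 5 members, against 1729 genes. At the same unadjusted p without the block, 12 h differed from 6 h in 2 members in DMSO, against 412 genes. In LBH589 it did so in 2 members, against 1415 genes. With the block these counts were 5 members against 1327 genes in DMSO, and 7 against 3438 in LBH589. Pik3r3, the p55 gamma regulatory subunit, had 11.91, 11.29 and 11.77 after 12 h in LBH589, against 11.15, 10.45 and 10.99 after 6 h. In DMSO it had 11.34, 11.16 and 11.21 after 12 h, against 11.02, 10.75 and 10.96 after 6 h. Within LBH589, each tumour was higher at 12 h by 0.76 to 0.84, and 0 members were called without the block, against 0% of all genes. With the block Pik3r3 alone was called, out of 1.99% of all genes, with a log2 change of 0.79 ± 0.10 (adjusted p = 0.00293). Within DMSO, 0 members were called without the block (0.0214% of all genes). With it the 1 member called was Eif4ebp1, against 0.311% of all genes, which was lower at 12 h in each tumour by a log2 change of -0.41 ± 0.06 (adjusted p = 0.0111). The DMSO change and the drug effects share the DMSO arrays. For Eif4ebp1 the LBH589 cultures differed by -0.11 between 12 h and 6 h, and the drug effect was -0.24 at 12 h and -0.53 at 6 h. For Pik3r3 the drug effect was 0.42 at 12 h and -0.05 at 6 h, the first called with the block (adjusted p = 0.00334).

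Tumours differed in their levels of many members. In a fit over all 12 arrays with terms for group and tumour, 18 of 32 members (56.2%) differed between tumours at a limma adjusted p under 0.05, against 37.4% of all genes. These were 8 of 17 activators, 8 of 11 inhibitors and 2 of 4 in neither class. With the filter at the 50th percentile, where most members lie, 6800 of 13822 genes and again 18 members were called. Rictor had the lowest adjusted p, with a mean of 10.03 ± 0.05 in MP525, 9.22 ± 0.10 in MP567 and 9.78 ± 0.14 in MP570 (SD, 4 cultures each, limma adjusted p = 8.77e-06). In Rictor the 4 MP567 cultures lay below all others, whatever the treatment. Pik3r1 (10.46 ± 0.20, 9.74 ± 0.29 and 10.02 ± 0.19, adjusted p = 1.59e-05) and Deptor (9.24 ± 0.54, 8.41 ± 0.23 and 9.42 ± 0.41, adjusted p = 3.19e-05) were lowest in MP567 too. Irs1 was highest in MP567, with 8.58 ± 0.19 in MP525, 8.89 ± 0.25 in MP567 and 8.22 ± 0.15 in MP570 (adjusted p = 0.000126). Of the 8 members whose drug effect was called at both times, Akt2 and Pdpk1 differed between tumours (adjusted p = 0.0047 and 0.0434), and Mlst8, Eif4e, Akt1, Mtor, Tsc2 and Eif4ebp2 did not pass this test (adjusted p 0.0712 to 0.675).

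**Figure D3:**
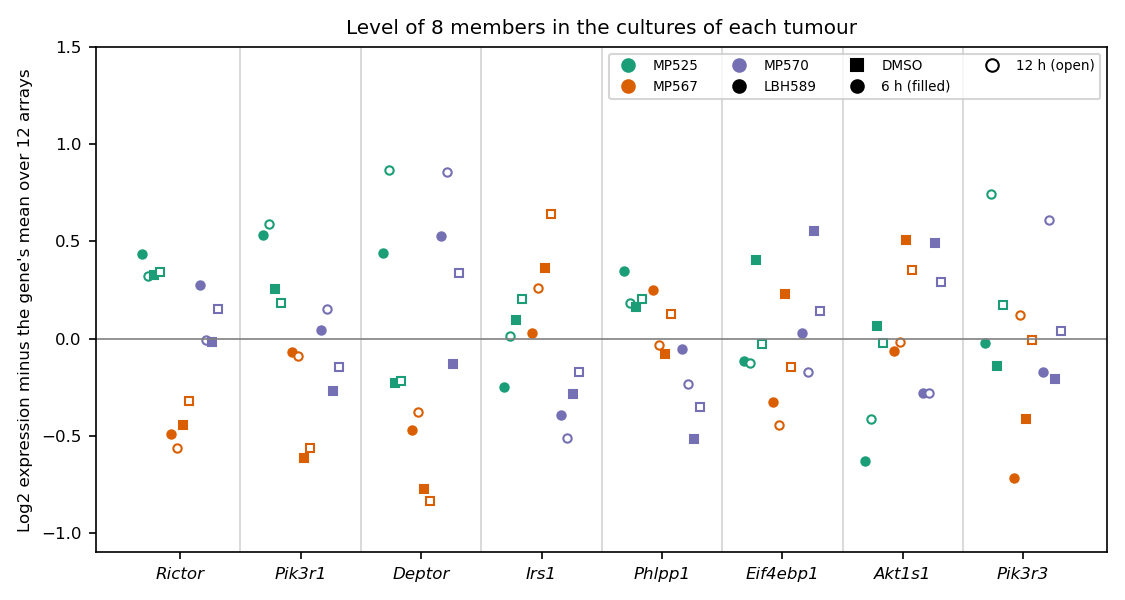
Log2 expression minus each gene's mean over 12 arrays, for the 8 members with the lowest adjusted p for differences between tumours, by tumour (colour), treatment (circles LBH589, squares DMSO) and time (filled 6 h, open 12 h). MP567 lies lowest in Rictor, Pik3r1 and Deptor, and MP570 in Irs1 and Phlpp1, in LBH589 and in DMSO.

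The drug effect itself was set side by side across tumours. The median log2 change of the activators at 6 h was -0.01 in MP525, -0.05 in MP567 and 0.08 in MP570, and at 12 h -0.07, -0.24 and -0.16. For the inhibitors these medians were 0.18, -0.09 and 0.14 at 6 h, and 0.04, -0.16 and 0.15 at 12 h. The medians of all genes lay between -0.04 and 0.07. A test of the tumour-by-drug term called 3 of 32 members (9.38%), against 4.35% of all genes. These were the PI3K genes Pik3ca, Pik3r2 and Pik3r3, with limma adjusted p of 0.0479, 0.0316 and 0.0346. With the filter at the 50th percentile this test called 917 of 13822 genes and again 3 members. Averaged over both times, Pik3r2 changed by -0.24 in MP525, 0.32 in MP567 and -0.26 in MP570. Pik3ca changed by 0.23, -0.07 and 0.41, and Pik3r3 by 0.35, -0.09 and 0.30. On this average MP567 had the opposite sign to the other tumours in each gene. By time, this held at both times for Pik3r2 alone: in MP567 Pik3ca changed by 0.105 at 6 h and -0.241 at 12 h, and Pik3r3 by -0.301 and 0.131. Pik3r2 alone was called after quantile normalization (adjusted p = 0.0156) or median centring (0.0359), and none of the 3 without the mean-variance trend (0.168 to 0.194).

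**Figure D4:**
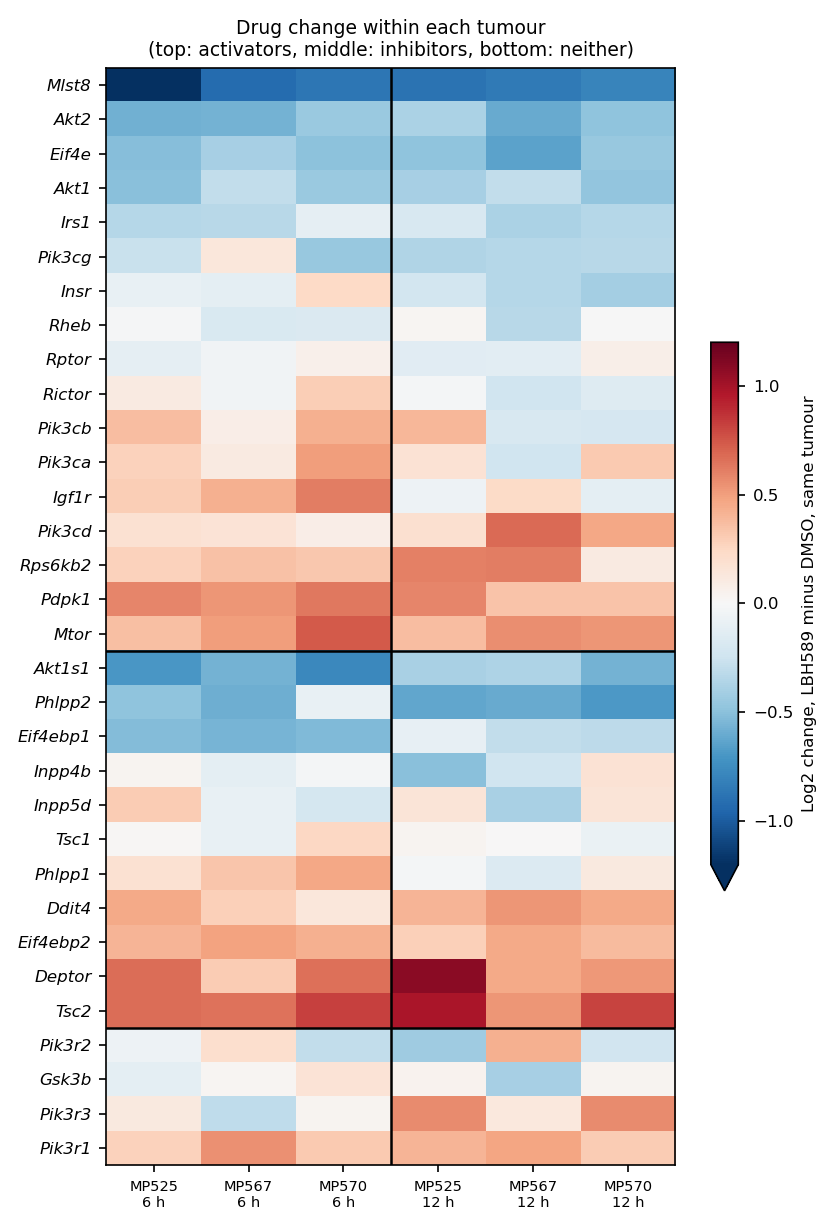
Log2 change, LBH589 minus DMSO, of 32 members within each tumour at 6 h and 12 h, with red for higher and blue for lower in LBH589 and rows grouped as activators, inhibitors and neither class. Rows from Mlst8 to Akt1 are blue and Tsc2, Eif4ebp2, Pdpk1 and Mtor red in all 6 columns, while Pik3r2 differs in sign between MP567 and the other tumours.

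Other genes of the pathway were counted in 6 lists, which hold 83 genes, 78 of them tested. At 6 h 14 rose and 8 fell, at 12 h 15 rose and 10 fell, and over both times 20 rose and 17 fell, read against the same shares of all genes as above. With the tumour block these counts were 21 and 19 at 6 h, 23 and 24 at 12 h, and 32 and 26 over both times. The list counts below are over both times, first without the block and then with it. Calls that held without each single array numbered 15 of 22 at 6 h, 13 of 25 at 12 h and 31 of 37 over both times. Those that held without each tumour as well numbered 5, 6 and 21. The same shares over all called genes are not given here. In the list of further PI3K subunits, phosphatases and AKT modulators (15 tested), 4 rose and 3 fell, with a median of 0.05, and with the block 4 rose and 5 fell. Sgk1, a kinase related to AKT, rose by 0.85 ± 0.14, and the lipid phosphatase genes Inpp4a and Inpp5k rose by 0.74 ± 0.09 and 0.69 ± 0.08. Trib1 and Trib2, pseudokinases of the Tribbles family, fell by 0.69 ± 0.10 and 0.66 ± 0.09. All 5 calls held without each array and each tumour (limma adjusted p 7.82e-05 to 0.000729).

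Among 13 insulin and IGF inputs, 3 rose and 2 fell, with a median of 0.20, and with the block 7 rose and 2 fell. Igf2r, the receptor that clears IGF2, rose by 1.06 ± 0.10 (limma adjusted p = 2.44e-05), and Irs2, the second main insulin receptor substrate, by 0.67 ± 0.12 (0.0015), while Irs1 was not called without the block. Grb14, an adaptor that inhibits the insulin receptor, rose by 0.27 ± 0.08 (0.0177), which did not hold without MP567 or MP570 (highest adjusted p = 0.158). Igfbp5, an IGF-binding protein, fell by 0.89 ± 0.20 (0.00571), a call lost without MP570 (adjusted p = 0.0887). Grb10, related to Grb14, changed by -1.05 ± 0.36 (0.0463), a call lost without any one of 8 arrays (highest adjusted p = 0.108). In amino acid sensing by mTORC1 (21 tested), 7 rose and 6 fell, with a median of 0.20, and with the block 11 rose and 8 fell. Of the 3 subunits of GATOR1, which inhibits mTORC1, Nprl2 and Depdc5 rose by 1.22 ± 0.16 and 0.50 ± 0.08. The third, Nprl3, changed by -0.22 ± 0.09 (limma adjusted p = 0.0912, and 0.0166 with the block). Mios, a subunit of GATOR2, which opposes GATOR1, fell by 0.90 ± 0.09, and Slc38a9, the lysosomal arginine sensor, rose by 0.98 ± 0.10 (limma adjusted p of Nprl2, Depdc5, Mios and Slc38a9 2.84e-05 to 0.000798). Of other GATOR2 genes, Sec13 rose by 0.27 ± 0.07 (limma adjusted p = 0.0127), which did not hold without MP525 or MP570 (highest adjusted p = 0.106). Wdr24 rose by 0.25 ± 0.08 (0.0281), a call lost without any one tumour (highest 0.135), without any one of 6 single arrays (highest 0.0699), and with quantile normalization or median centring. Wdr59 changed by 0.22 ± 0.09 (0.108, and 0.00271 with the block). The GATOR2 gene Seh1l changed by -0.94 ± 0.08 on its brighter probe set, but by -0.07 (adjusted p = 0.602) when its probe sets were averaged.

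Of 12 genes of AMPK, LKB1 and the sestrins, which restrain mTORC1, 4 rose and 1 fell, and with the block 5 rose and 4 fell. Sesn3 rose by 0.94 ± 0.12 and Sesn2 by 0.77 ± 0.14 (limma adjusted p = 0.000139 and 0.00143), and the AMPK subunit gene Prkag2 fell by 0.49 ± 0.12 (0.00787), a call lost without MP525 (adjusted p = 0.0927). The other genes called higher were the AMPK subunit genes Prkab1 and Prkab2, so the called AMPK subunits went both ways. Those calls were lost without any one of 11 and 9 arrays (highest limma adjusted p = 0.095 and 0.0826). Sesn1, the remaining sestrin gene, changed by -0.52 ± 0.18 (0.0509, and 0.000136 with the block), and the AMPK catalytic subunit gene Prkaa1 by -0.64 ± 0.28 (0.106, and 5.5e-05 with the block). Both were lower with LBH589 in each tumour. Among 7 accessory genes of the mTOR complexes 2 rose and 1 fell, and with the block 3 rose and 2 fell. Prr5, an mTORC2 subunit, rose by 1.48 ± 0.28 (0.0021). Mapkap1, another mTORC2 subunit, rose by 0.29 ± 0.08 (0.0151), a call lost without MP525 or MP570 (highest adjusted p = 0.178). Tbc1d7, which encodes the remaining member of the TSC complex, fell by 0.77 ± 0.14 (0.00153), so that over both times Tsc2 rose by 0.75 ± 0.07, Tsc1 was not called and Tbc1d7 fell. Of 10 genes of cap-dependent translation and S6 kinase targets, 0 rose and 4 fell without the block, with a median of -0.22, and 2 rose and 5 fell with it. The 4 were the initiation factor genes Eif4g2 (-0.44 ± 0.05, limma adjusted p = 4.51e-05) and Eif4b (-0.43 ± 0.11), with Eef2k (-0.56 ± 0.15) and Larp1 (-0.43 ± 0.12), which control elongation and the translation of ribosomal protein mRNAs. Without MP525 or MP570 the calls of Eif4b, Eef2k and Larp1 were lost (highest adjusted p = 0.139). The plot of the other pathway lists shows these changes beside the list medians.

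**Figure D5:**
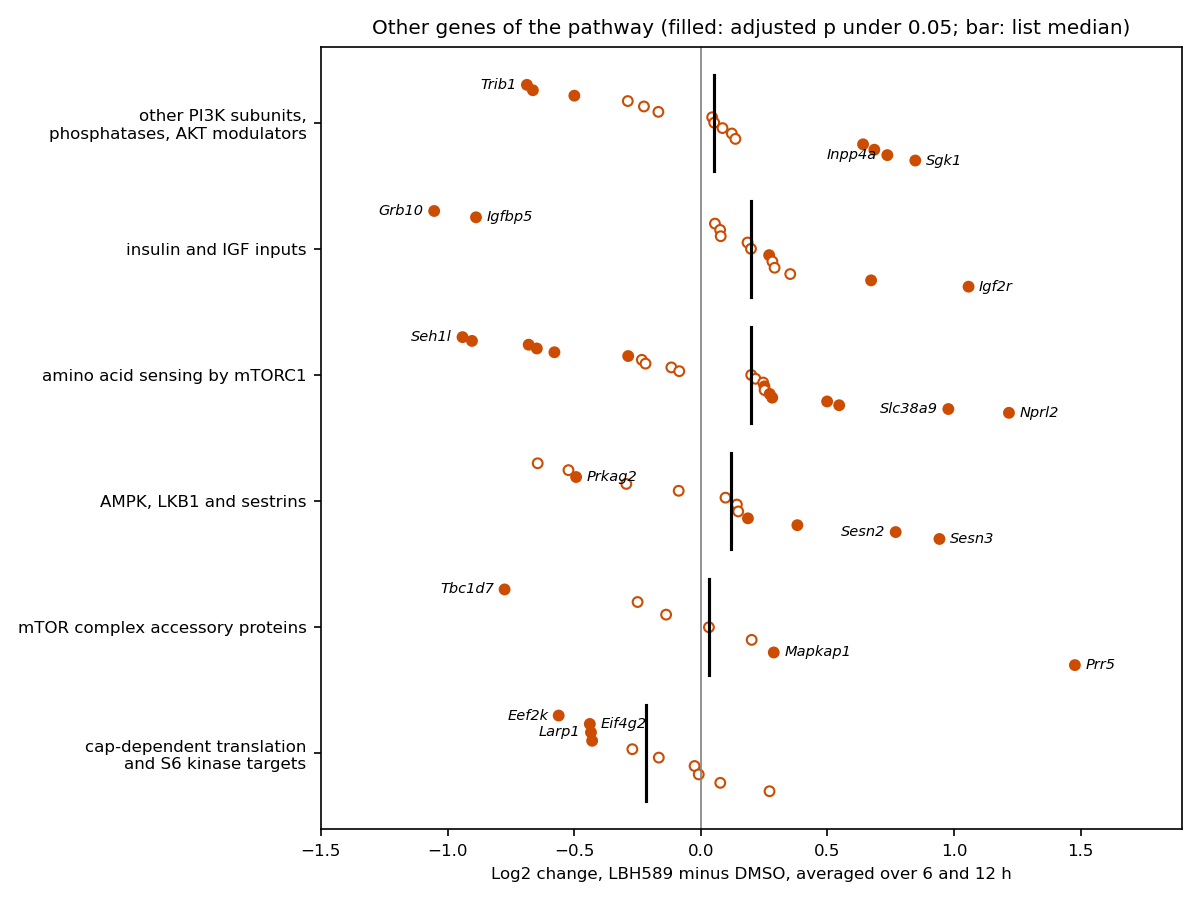
Log2 change of 78 further pathway genes, LBH589 minus DMSO, averaged over 6 h and 12 h, with 1 point for each gene, filled where the limma adjusted p without the block was under 0.05, and a bar at each list's median. The medians lie between -0.22 (cap-dependent translation) and 0.20 (insulin inputs and amino acid sensing), and 5 of the 6 lists hold filled points on both sides of 0.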

How the data were processed

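Total RNA of 12 cultures was measured on whole-transcript arrays, 1 array for each culture. The authors deposited a log2 value for each of 41345 probe sets, between 1.50 and 14.5, with the log base read from that range. Per the submitters' processing notes the tool was Agilent Feature Extraction 10.7.3.1, which is made for another company's arrays. The steps of summarising and normalising are not stated in the sources used here. Only the 23521 probe sets annotated with exactly 1 gene were used, leaving out 1814 with several genes and 16010 without an entry. RefSeq gave current symbols for 23328. A gene was tested if it lay above an array's 25th percentile on at least 3 arrays.

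The 4 group means were fitted with limma 3.58.1 in R 4.3.3 (lmFit, then eBayes with its trend option), leaving 8 residual degrees of freedom. Two-sided p-values were Benjamini-Hochberg adjusted over 18652 genes in each of 6 comparisons, which share arrays. The script was tested on simulated data. The labels tie arrays to tumours: deviations from group means correlated at 0.450 to 0.805 in 18 same-tumour pairs and at -0.51 to -0.0577 in 36 others, so the fit with the tumour as a replicate block (6 degrees of freedom) is given where it changes a member's call or a count. P-values without the block measure the spread between tumours, each with 1 culture in a group. Those with the block measure the spread left once each tumour's own level is taken out. Differences between tumours were limma F-tests. These compare the cultures of the 3 tumours, 4 for each tumour, with no repeated culture of a tumour within a group. Alternatives were a random block (correlation 0.40), quantile normalization, median centring, other filters, averaged probe sets, no trend and left-out arrays. Members and lists were chosen with earlier results of these data known. All members may be named, with array values for those called without the block, for those called with it at a change of at least 0.5, and for 1 or more in each role. Of other lists, up to 3 called genes with the largest changes in each comparison are named. Depdc5, Nprl3, Wdr24, Wdr59, Sec13, Sesn1, Prkaa1, Prkab1, Prkab2 and Eif4b were chosen after their values were seen.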

Additional observations from a re-analysis of the deposited data

Results flagged for a closer look

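For 3 members the LBH589 effect differed between tumours by a test of the tumour-by-drug term over all 12 arrays. The limma adjusted p was 0.0479 for Pik3ca, 0.0316 for Pik3r2 and 0.0346 for Pik3r3. In each of these genes of PI3K subunits the change averaged over both times had the opposite sign in MP567 to that in MP525 and MP570. For Pik3r2 only, this held both at 6 h and at 12 h. The Pik3r2 call alone was kept after quantile normalization or median centring, and none of the 3 was kept without the mean-variance trend.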

How the results depend on the processing

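With the tumour as a replicate block, which is the paired fit, 19 members were called at 6 h and 19 at 12 h, against 11 at each time without it, and 1 within DMSO and 1 within LBH589 between 12 h and 6 h, against 0. It ended no call. The random block gave 17 at 12 h and 1 within LBH589. Leaving out arrays gave 1 to 11 members at 6 h, 3 to 11 at 12 h, 9 to 16 over both times, and 0 in each comparison of times. Over all genes these fits called 879 to 2994 at 6 h, 1265 to 3370 at 12 h and 3308 to 5288 over both times. Of the 3 members whose effect differed between tumours, quantile normalization and median centring each left 1 and a fit with no trend 0. The other settings kept the counts of called members within 1.5 times. No member changed sign while called. Seh1l at 6 h turned to 0.13 (adjusted p = 0.561) with averaged probe sets, so its probe sets disagree. The cause was not tested otherwise. The table holds no background signal, so what the brightness of a probe set limits could not be measured beyond the filter on dim genes.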
